A study of Homo sapiens with 4 samples.

Results

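Kinesins are motor proteins that use ATP to move along, slide or shorten microtubules. One set works in dividing cells, where it builds the bipolar spindle, aligns chromosomes and organises the midzone at which the cell divides. Another set carries vesicles, organelles and RNA along the microtubules of interphase cells. The mRNAs of the mitotic set are known to peak around G2 and mitosis in cycling cells, whereas many transport kinesins are made throughout the cell cycle or mainly in neurons.

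The kinesin family was taken as every gene in the count tables whose name is KIF followed by a number, with at most 1 letter and 1 further digit after it. This gave 40 genes among 29655 distinct names. They were divided by known function into 13 mitotic kinesins, 13 cargo-transport kinesins and 14 others, which are ciliary, dual in role, regulators of microtubule growth or little studied. Of the 40, 26 passed the filter on low expression, which were 11 mitotic, 9 cargo-transport and 6 other kinesins. All 26 passed it in both groups, so none entered the test through the group in which it was higher.

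RNA-seq was carried out on cells labelled UMSCC74B, an established line from a head and neck squamous cell carcinoma (HNSCC), to learn which genes respond to silencing of PRMT5, the main enzyme of symmetric arginine dimethylation. Control cells (genotype WT) were given control shRNA and PRMT5 KD cells were given PRMT5 shRNA, with 2 libraries per group and RNA taken 72 h later. The labels speak of plasmid transfection and the methods of lentiviral transduction, and neither gives the shRNA sequence or says whether replicates were separate cultures. The p-values therefore measure the spread between these libraries, which may be technical.

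The libraries held 52185289 to 65964558 estimated counts, and rRNA took 14.2% to 26.2% of them, most in the library labelled PRMT5 KD-1. PRMT5 itself had 94.3 and 84.2 CPM (counts scaled to a common library size after TMM) in control, but 132.1 and 149.5 CPM in those labelled PRMT5 KD (hereafter the KD label), a log2 fold change of 0.66 (SE 0.12, FDR = 0.00546). The targeted transcript was thus higher, not lower, under that label, and every direction below is by label. Per the methods, transduced cells were checked by qRT-PCR for mRNA and by immunoblot for protein. Protein is not measured in these libraries. Whether the labels were exchanged was not tested, and with exchanged labels each rise described here would be a fall of the same size. The PRMT5 call was lost without control replicate 2 (0.58, FDR = 0.0678). Most markers of squamous epithelium were absent or nearly so, so the squamous identity given by the labels was not seen in the RNA. KRT5, KRT6A, KRT14 and CDH1 had at most 21.8 counts in any library, and EPCAM had 29 to 48. KRT17 had 5 and 6 counts in control and 53 and 71 with the KD label. TP63 was the one of the 7 markers that was tested. It had 5.51 and 6.60 CPM in control and 1.74 and 3.01 CPM with the KD label, and it was called lower (-1.35, FDR = 0.0111). It passed the filter on low expression through the control group alone, so its call in that direction is not independent of the filter. TP63 made up most of the control sums of 6.80 and 7.40 CPM over the list. The 4 fibroblast markers on the list, among them COL1A1 and COL3A1, summed to 370.4 and 431.7 CPM in control and to 58.8 and 61.1 CPM with the KD label. Of the leukocyte markers, PTPRC and CD3E had at most 5 counts, and CD68 made up nearly all of the list's 94.7 to 169.6 CPM. Endothelial markers summed to 9.98 and 13.9 CPM in control against 1.01 and 0.46 CPM, and neuronal markers to between 52.9 and 67.2 CPM. Most of the neuronal sums came from TUBB3 (36.8 to 51.4 CPM), and STMN2 had at most 2 counts in any library. In bulk RNA, fewer cells of a type and less RNA per cell cannot be told apart.

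The 11 mitotic kinesins that were tested were all higher in the libraries with the KD label, whereas none of the 9 cargo-transport kinesins tested was called higher. Calls needed a size of at least 0.5 on the log2 scale and an FDR below 0.05 from the quasi-likelihood test of edgeR, adjusted over all 11893 protein-coding genes tested. Such calls took in 45.5% of all genes tested, in either direction. All 11 mitotic kinesins were called higher, against a background of 21.2%. In each of them both libraries with the KD label lay above both controls in CPM, which held for 39.9% of all genes tested. Their median log2 fold change was 1.49, with a range from 0.74 to 2.04, against -0.0077 over all genes. Of the 9 cargo-transport kinesins, 4 were called lower, against a background of 24.3%, and the remaining 5 were not called. In 7 of the 9 both libraries with the KD label lay below both controls, which held for 40.6% of all genes tested. The median of the 9 was -0.43, and they ran from -1.12 to -0.014. Of the 6 other kinesins, 2 were called higher and 1 lower. KIF2A, which also acts at spindle poles but was placed among the others, was not called (0.22, FDR = 0.16). The full count of mitotic calls depends on that placement, and the classes were set with earlier results of these data known.

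**Figure D1:**
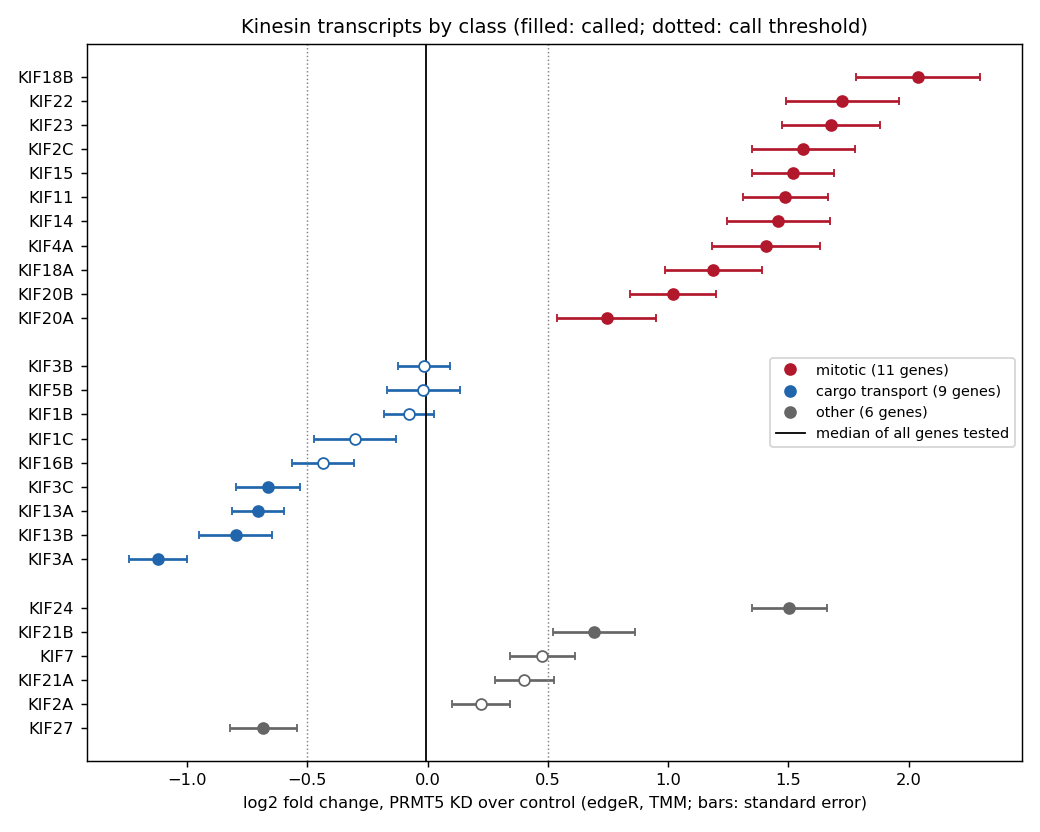
The plot of fold changes by class shows the log2 fold change of each of the 26 kinesins tested (x axis, libraries labelled PRMT5 KD over control), with bars for the standard error from edgeR and filled points for called genes. The mitotic kinesins lie between 0.74 and 2.04, and the cargo-transport kinesins between -1.12 and -0.014.

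Promoters of mitotic genes often hold a cell cycle genes homology region (CHR), an element read by the DREAM and MuvB complexes, together with CCAAT boxes bound by NF-Y. The kinesin promoters were searched for both. A CHR was taken as TTTGAA or TTCGAA and an NF-Y box as CCAAT, on either strand, in the 300 bases from 250 before to 50 after each RefSeq start (GRCh38.p14). RefSeq windows were matched for 33 of the 40 kinesins, 7 of them with more than 1 start, and a gene was counted if any of its windows held the letters. KIF5A, KIF13B, KIF19, KIF21B, KIF26B, KIF27 and KIF28P were not matched. The windows with a CHR in tested kinesins are printed here because the mitotic class, called higher throughout, held most of them. Each line gives 30 bases of the gene's own strand, 5′ to 3′, with the CHR or its reverse complement TTCAAA in capitals.
KIF4A (chrX:70290058-70290087, plus strand): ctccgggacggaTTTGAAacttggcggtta
KIF11 (chr10:92593090-92593119, plus strand): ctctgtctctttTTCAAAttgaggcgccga
KIF14 (chr1:200620733-200620762, minus strand): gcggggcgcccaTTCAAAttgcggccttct
KIF15 (chr3:44761747-44761776, plus strand): ccaagcgccaaaTTCAAAtttgcggccatc
KIF18A (chr11:28108149-28108178, minus strand): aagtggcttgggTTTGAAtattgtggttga
KIF18B (chr17:44947754-44947783, minus strand): ccgcccggctaaTTTGAAcgcaaggcgccg
KIF20B (chr10:89701602-89701631, plus strand): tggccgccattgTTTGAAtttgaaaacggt
KIF22 (chr16:29790712-29790741, plus strand): ggcaccggggaaTTCGAAtgggagaggcgg
KIF23 (chr15:69414282-69414311, plus strand): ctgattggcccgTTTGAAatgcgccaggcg
KIF24 (chr9:34329250-34329279, minus strand): acagcgcgggcgTTCGAActggcgcttggc
KIF5B (chr10:32056548-32056577, minus strand): agtgcagtaaaaTTTGAAtctgcgaccccg

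Of the 11 mitotic kinesins tested, 9 held a CHR in the window, and in the first listed window of each gene it lay between positions -55 and 31, counted from the annotated start. KIF20B held a pair of them side by side. KIF2C and KIF20A held none. Among the 8 cargo-transport kinesins tested and matched, KIF5B alone held one, at position -140. Among the 4 other kinesins it was KIF24 alone, and KIF24 was also the one of these 4 that was called. For comparison, 15.6% of all 9163 tested genes with a window held a CHR, and 19.5% of all 27305 genes with a window did. A CCAAT box stood in 9 of the 11 mitotic windows, 3 of the 8 cargo-transport windows and 4028 of the 9163 tested genes. Both elements occurred together in 8 of the 11 mitotic kinesins and in 6.6% of the tested genes. Over all tested genes, the share with a CHR was 19.6% among those called higher (374 of 1911), against 328 of 2183 among those called lower and 14.3% among those not called. A gene with several windows has more chances of a match. Among tested genes with 1 window the shares were 16.8%, 8.08% and 9.53% in the same order and 10.8% in all, and 8 of the 10 mitotic kinesins with 1 window held a CHR. Such short matches are a description of the letters and not evidence of a bound site.

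**Figure D2:**
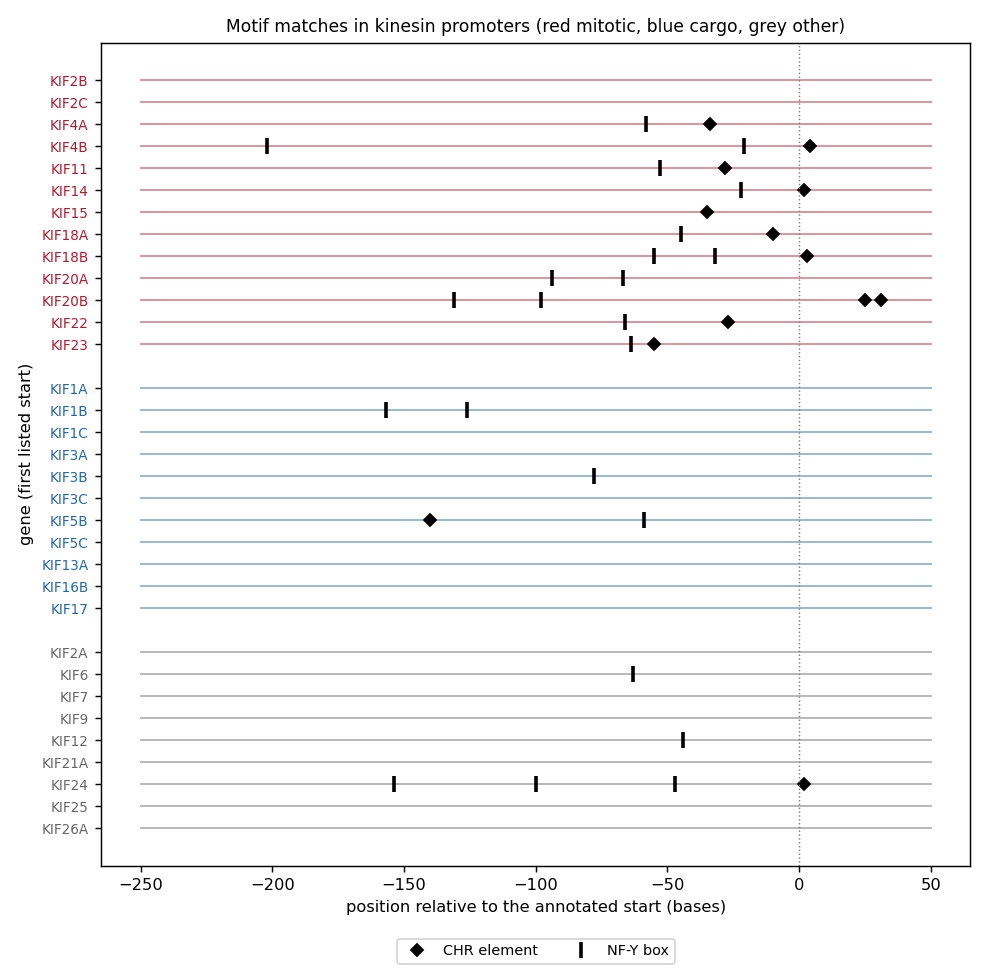
The map of motif matches shows, for the first listed start of each of the 33 matched kinesins (rows), the position of each CHR (diamonds) and NF-Y box (bars) relative to the annotated start (x axis, bases, at the first base of the match). In the mitotic rows the diamonds sit within 55 bases of the start and the bars mostly before them.

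Among the mitotic kinesins, those that build and hold the spindle are described first. KIF11 (Eg5), which slides antiparallel microtubules apart to make the spindle bipolar, spans positions 92574105 to 92655395 of chromosome 10 (GRCh38). Control libraries gave 85.9 and 61.6 CPM and those with the KD label 199 and 214 CPM, a log2 fold change of 1.49 (SE 0.18, FDR = 0.00115). KIF15, which can take over from KIF11 in keeping the poles apart, had the lowest level of the 11 tested. It measured 10.8 and 8.31 CPM in control against 26.1 and 28.5 CPM, a log2 fold change of 1.52 (SE 0.17, FDR = 0.000891). KIF11 rose 2.80-fold and KIF15 2.87-fold, with no overlap between groups.

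KIF18A and KIF18B belong to the kinesins that act at microtubule plus ends. KIF18A, which damps the movements of chromosomes at the metaphase plate, went from 20.6 and 13.9 CPM to 37.6 and 40.7 CPM, a log2 fold change of 1.19 (SE 0.20, FDR = 0.00405). KIF18B, which shortens astral microtubules, showed the largest rise of the 26 kinesins tested, 4.10-fold. It lies on chromosome 17 from 44924709 to 44947773 and had 27.5 and 17.6 CPM in control against 79.5 and 105 CPM, a log2 fold change of 2.04 (SE 0.26, FDR = 0.00211). KIF2C (MCAK), a depolymerase that removes wrong attachments at kinetochores, went from 43.8 and 28.3 CPM to 106 and 107 CPM, with a log2 fold change of 1.56 (SE 0.21, FDR = 0.00235). Its relative KIF2B had at most 2 counts in any library and was not tested.

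The chromokinesins KIF4A and KIF22 bind chromosome arms. KIF4A had 34.1 and 21.6 CPM in control and 75.8 and 71.6 CPM with the KD label, a log2 fold change of 1.41 (SE 0.22, FDR = 0.00398). KIF22 (Kid), which pushes the arms towards the cell equator, had 26.4 and 16.7 CPM against 65.9 and 76.1 CPM, a log2 fold change of 1.72 (SE 0.24, FDR = 0.00244). In both genes the groups stood apart. On the opposite strand, annotated exons cover 7.83% of the exon length of KIF22 (a lncRNA) and 1.68% of that of KIF4A (PDZD11). KIF4B is an intronless near-copy of KIF4A with 15 to 29 counts per library, and how the estimates split reads between these 2 genes is not known.

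The kinesins of the midzone and of cytokinesis rose as well, and the smallest change of the class was among them. KIF23 (MKLP1), which forms centralspindlin with RACGAP1, went from 48.9 and 32.5 CPM to 131 and 129 CPM, a log2 fold change of 1.68 (SE 0.20, FDR = 0.00141). KIF14, which works with citron kinase at the midbody, went from 48.8 and 31.7 CPM to 106 and 115 CPM, a log2 fold change of 1.46 (SE 0.21, FDR = 0.00297). KIF20B, a plus-end motor needed to complete cytokinesis, had the highest mean control level of the 11 in CPM. It measured 106 and 75.5 CPM in control against 194 and 174 CPM, a log2 fold change of 1.02 (SE 0.18, FDR = 0.0046). KIF20A (MKLP2), which brings the chromosomal passenger complex to the midzone, lies on chromosome 5 from 138178719 to 138187723. It had 50.8 and 33.9 CPM in control and 65.9 and 75.9 CPM with the KD label, a log2 fold change of 0.74 (SE 0.21, FDR = 0.0259). KIF20A was the one mitotic call that did not hold with every library left out, at 0.48 (FDR = 0.102) without control replicate 2 and 0.65 (FDR = 0.109) without PRMT5 KD replicate 2.

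The spread inside the control group followed the classes. All 11 mitotic kinesins were higher in control 1 than in control 2, by 1.30-fold to 1.58-fold, whereas 8 of the 9 cargo-transport kinesins were lower in control 1, with ratios from 0.832 to 1.05. Between the libraries labelled PRMT5 KD the mitotic ratios ran from 0.756 to 1.12. Proliferation markers were higher with the KD label too. The 8 on the list (MKI67, TOP2A, PCNA, MCM2, CCNB1, CCNB2, CDK1 and CCNA2) summed to 848 and 625 CPM in control 1 and 2 and to 2102 and 2129 CPM with the KD label. Between control 1 and 2, PCNA (59.6 and 62.7 CPM) and MCM2 (61.6 and 60.8 CPM) were nearly level. The other markers on the list were higher in control 1. Each of the 8 was called higher, against 21.2% of all genes tested. On the log2 scale their median change was 1.77, from 0.96 for TOP2A to 2.02 for PCNA and 2.12 for CCNA2. Their part in the rise of the mitotic kinesins was not tested.

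**Figure D3:**
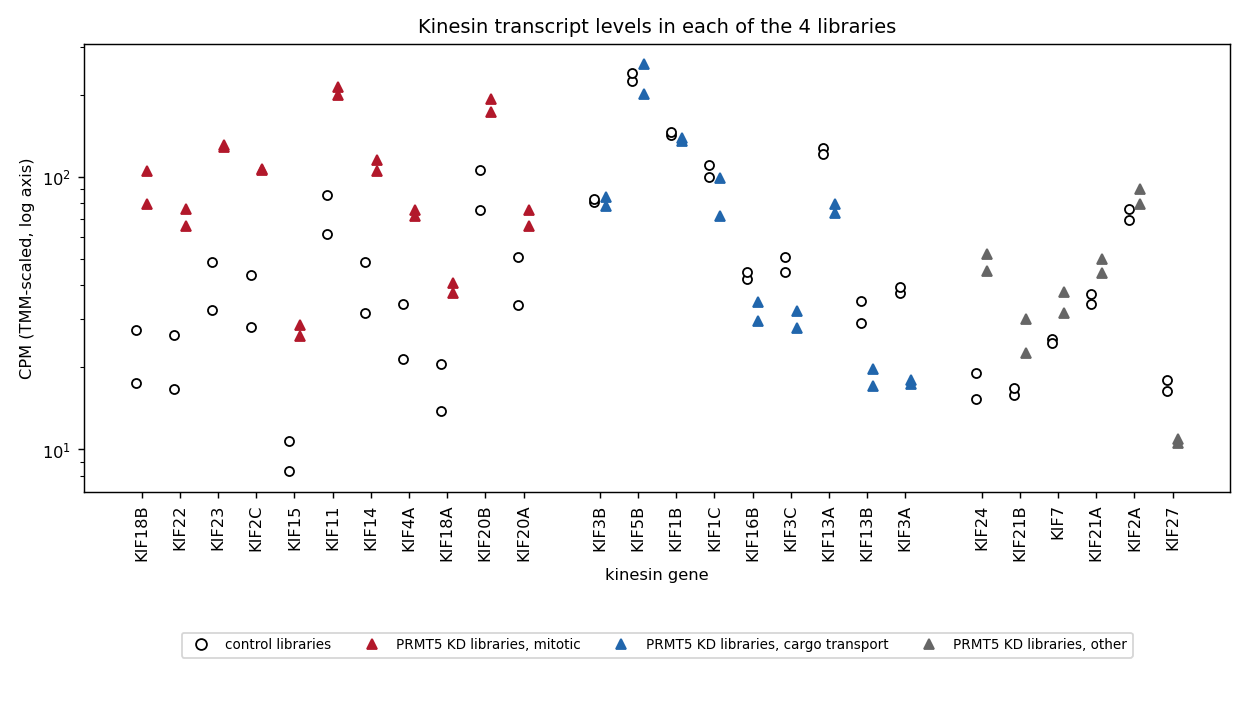
The plot of levels by library gives the CPM (log axis) of each kinesin tested in the 2 control libraries (open circles) and the 2 libraries labelled PRMT5 KD (triangles). For each of the 11 mitotic kinesins both triangles lie above both circles, while KIF5B and KIF3B of the cargo-transport class overlap.

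Among the cargo-transport kinesins, the most abundant one did not differ between groups beyond the spread. KIF5B, the ubiquitous heavy chain of conventional kinesin, carries mitochondria, lysosomes and other cargo with the help of light chains. It had 225 and 241 CPM in control and 259 and 201 CPM with the KD label, a log2 fold change of -0.017 (SE 0.15, FDR = 0.935). The groups overlapped. Of its neuron-enriched relatives, KIF5A was low, with 7 or 8 counts in each library. KIF5C counts were 440 and 772 in control (11.1 and 15.4 CPM) against 188 and 150. Its annotated exons add up to 33151 nt, which put it under the RPKM filter, and under edgeR's filterByExpr it was called lower at -1.84 (SE 0.23, FDR = 0.000899).

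Kinesin-2 is built from KIF3A paired with KIF3B or KIF3C, together with the accessory subunit KIFAP3, and it moves vesicles and the trains that assemble cilia. KIF3A showed the largest fall of the kinesins tested. It lies on chromosome 5 from 132692628 to 132737638 and had 37.5 and 39.5 CPM in control against 18.01 and 17.4 CPM, a log2 fold change of -1.12 (SE 0.12, FDR = 0.000782). KIF3C fell from 44.7 and 50.7 CPM to 32.3 and 27.9 CPM, a log2 fold change of -0.66 (SE 0.13, FDR = 0.00704). KIF3B, by contrast, had 80.9 and 83.3 CPM in control and 84.6 and 78.0 CPM with the KD label, with a log2 fold change of -0.014 (SE 0.11, FDR = 0.927). KIFAP3 had a log2 fold change of 0.14 (FDR = 0.372). The subunits of 1 motor thus had unlike values, and the difference between them was not itself tested. Per kb of transcript, KIF3A had 6.10 CPM in control against 13.4 for KIF3B, and 2.81 against 13.3 with the KD label.

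The kinesin-3 motors carry synaptic vesicle precursors, endosomes and secretory vesicles. KIF13A, which moves vesicles with the mannose-6-phosphate receptor and recycling endosomes, fell from 127 and 122 CPM to 79.3 and 73.8 CPM, a log2 fold change of -0.70 (SE 0.11, FDR = 0.00258). KIF13B fell from 29.1 and 35.0 CPM to 19.8 and 17.1 CPM, a log2 fold change of -0.80 (SE 0.15, FDR = 0.00575). KIF16B, a motor of early endosomes, had 42.1 and 44.7 CPM against 34.7 and 29.5 CPM. Its log2 fold change of -0.43 (SE 0.13, FDR = 0.0291) passed the FDR but not the threshold on size. KIF1C, which moves dense-core vesicles and integrins, had 100.3 and 110.5 CPM against 99.1 and 71.9 CPM, so that 1 library under the KD label lay close to control (-0.30, SE 0.17, FDR = 0.178). KIF1B, a carrier of mitochondria and synaptic vesicle precursors, had 142 and 147 CPM against 135 and 138 CPM (-0.078, SE 0.10, FDR = 0.556). The neuronal KIF1A had at most 8 counts, and KIF17, a motor of dendrites and cilia, had 61 to 108 counts and was not tested.

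With each library left out in turn, 2 to 6 of the 9 cargo-transport kinesins were called. Without control replicate 2, KIF3C (-0.57, FDR = 0.0768) and KIF13B (-0.66, FDR = 0.0646) were no longer called. Without PRMT5 KD replicate 1, KIF1C (-0.51, FDR = 0.00902) and KIF16B (-0.52, FDR = 0.0107) were called lower, which brought the class to 6 of 9. With total counts in place of TMM factors, KIF3C was at -0.49 (FDR = 0.017) and no longer called.

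Fold changes in these libraries fell with transcript length, and the classes differ in length. The median exon length, counted as the union of annotated exons, was 5281 nt for the mitotic kinesins tested, 7733 nt for the cargo-transport kinesins and 5389 nt for all genes tested. With all genes sorted by length into 10 equal groups, the shortest had a median log2 fold change of 0.24 and the longest one of -0.29. After a length and GC correction all 11 mitotic kinesins were still called higher, at a median of 1.48, against 24% of all genes in the same fit. The cargo-transport median became -0.29, and 2 of the 4 calls remained, KIF3A (-1.08, FDR = 0.000939) and KIF3C (-0.51, FDR = 0.0186). In that fit 20.9% of all genes were called lower, so 2 of 9 was close to the background. KIF13A (-0.42, FDR = 0.0159) and KIF13B (-0.42, FDR = 0.0494) fell short of the size threshold. KIF1B, the longest of those tested at 18915 nt, changed sign to 0.38 (FDR = 0.0265), without a call.

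**Figure D4:**
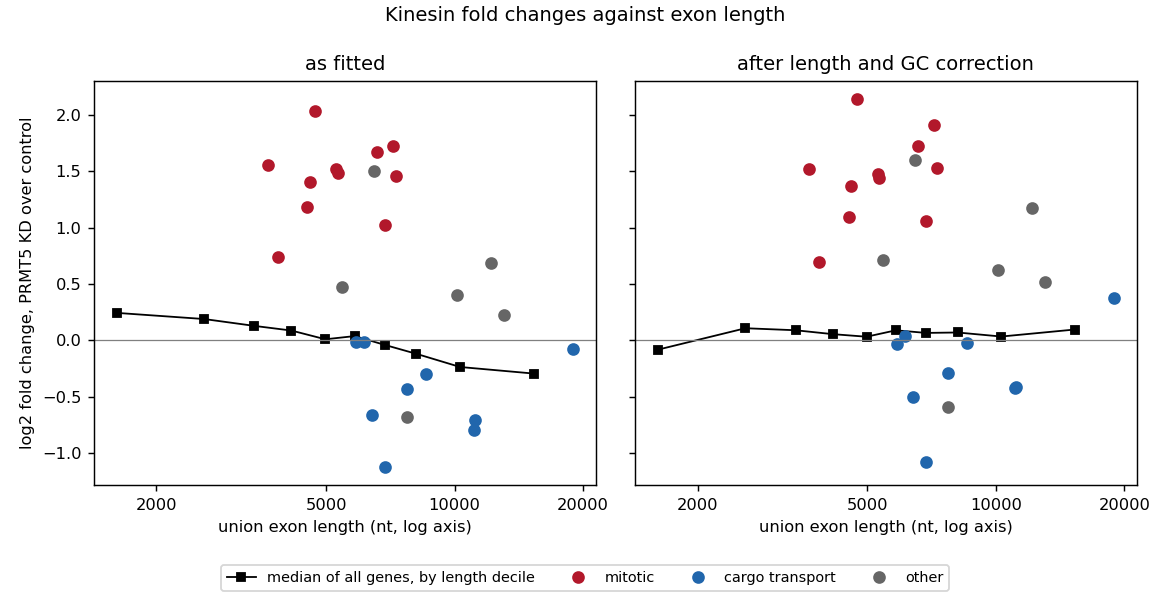
The plot against exon length gives the log2 fold change (y axis) and union exon length (x axis, nt, log axis) of each kinesin tested, as fitted on the left and after the length and GC correction on the right, with squares for the median of all genes in each of 10 groups by length. The mitotic points stay above 0.69 in both panels, while 6 of the 9 cargo-transport points lie nearer to 0 on the right and KIF1B, KIF3B and KIF5B lie farther from it.

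Among the other kinesins, KIF24 changed by as much as the middle of the mitotic class. KIF24, which shortens microtubules at centrioles and holds back cilia, lies on chromosome 9 from 34252380 to 34329268. It had 19.0 and 15.3 CPM in control and 45.2 and 52.2 CPM with the KD label, a log2 fold change of 1.504 (SE 0.16, FDR = 0.000725). KIF21B, a regulator of microtubule growth, was called higher at 0.69 (FDR = 0.0148), a call lost without either control library (FDR = 0.107 without control replicate 1 and 0.0897 without control replicate 2). KIF27, a relative of the ciliary kinesin KIF7, was called lower at -0.68 (FDR = 0.00742), and not without control replicate 2 (-0.61, FDR = 0.0771).

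KIF7, which shapes the ciliary tip in Hedgehog signalling, had a log2 fold change of 0.48 (FDR = 0.0247), and KIF21A one of 0.40 (FDR = 0.0317). Both passed the FDR but not the size threshold, and both were called without PRMT5 KD replicate 1 (0.63, FDR = 0.00319, and 0.52, FDR = 0.00926). KIF2A, a depolymerase of spindle poles and neurons, had 0.22 (FDR = 0.16). After the length and GC correction, KIF7 (0.72), KIF21A (0.63) and KIF2A (0.52) were called as well, which brought this class to 5 higher and 1 lower. In that fit 24% of all genes were called higher and 20.9% lower, and the median of all genes was 0.0625. On the opposite strand, exons of TICRR cover 10.8% of the exon length of KIF7, and exons of DIMT1 cover 18.7% of that of KIF2A. The library kit keeps strand, but the strand setting of the counting is not given in the sources used here, so reads of these pairs may not be fully separated.

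The other 14 kinesins were not tested, KIF28P because it is not annotated as protein-coding and the rest because they did not pass the filter. Of the 14, 9 had at most 12 counts in every library, which were KIF2B, KIF1A, KIF5A, KIF6, KIF12, KIF19, KIF25, KIF26A and KIF28P. KIF19 had 0 counts in all 4 libraries, which allows up to 3 counts or 0.06 to 0.0758 CPM in each. Under filterByExpr, with 13940 genes tested, 5 of the 14 could be compared. KIF5C was called, and KIF4B (0.76, FDR = 0.169), KIF17 (0.67, FDR = 0.102), KIF9 (0.43, FDR = 0.286) and KIF26B (-0.42, FDR = 0.278) were not.

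The make-up of the family as a whole was compared per kb of the canonical transcript, over all 40 genes. Mitotic kinesins took 43.99% and 33.5% of the summed kinesin level in the control libraries and 63.5% and 66.9% in those labelled PRMT5 KD. Cargo-transport kinesins took 45.9% and 55.0% in control and 27.7% and 23.5% with the KD label. The summed mitotic level went from 101.0 ± 28.1 to 271 ± 11.0 CPM per kb (SD, n = 2 each), and the summed cargo-transport level from 129.7 ± 5.07 to 106 ± 12.2 CPM per kb. The ratio of mitotic to cargo-transport kinesins was 0.958 and 0.609 in control and 2.29 and 2.85 with the KD label. With 2 libraries against 2, an exact permutation test cannot go below a two-sided p of 0.333, and none was run on these sums.

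**Figure D5:**
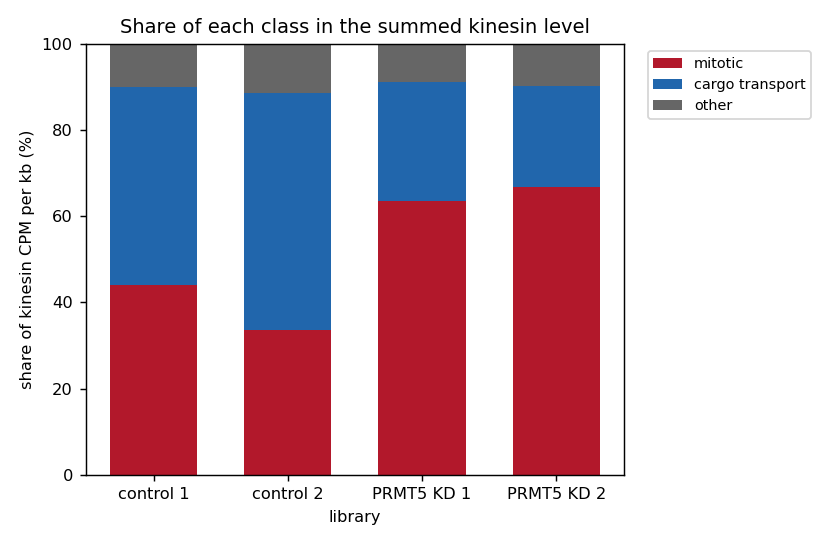
The plot of class shares gives the percentage of the summed kinesin level (CPM per kb of canonical transcript, y axis) held by each class in each of the 4 libraries. The mitotic share is 43.99% and 33.5% in control and 63.5% and 66.9% with the KD label.

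The order of the single kinesins also differed. In control, KIF5B led with a mean of 39.7 CPM per kb, followed by KIF13A at 20.8 and KIF11 at 14.7. Under the PRMT5 KD label KIF11 had 39.7 and 42.6 CPM per kb and KIF5B 44.2 and 34.3, so that the libraries of these leading 2 overlapped. KIF2C (37.1), KIF23 (35.5) and KIF22 (34.1) came next by their means, ahead of KIF13A at 12.7.

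Kinesins and partners outside the name rule were followed for comparison. KIFC1, a minus-end motor that gathers spindle poles, was called higher at 1.57 (FDR = 0.0018), and CENPE, the kinesin of the kinetochore, at 1.10 (FDR = 0.00713). KIFC2 was called lower at -0.97 (FDR = 0.00145), and KIFC3 had 0.25 (FDR = 0.192). Of 15 mitotic partners, 13 were called higher (86.7%) and none lower, against 21.2% and 24.3% of all genes tested. The median of the partners was 1.24 on the log2 scale. The largest rises were in AURKB (2.34, FDR = 0.000442), the kinase of the chromosomal passenger complex, and CDCA8 (1.79, FDR = 0.00628), another subunit of it. The partners of the midzone kinesins were among the 13, with PRC1 at 1.23 (FDR = 0.00894) and RACGAP1 at 1.05 (FDR = 0.00709). CKAP5 (0.43, FDR = 0.0337) and NUMA1 (-0.16, FDR = 0.27) were not called. Without PRMT5 KD replicate 2 the number called was 8.

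Light chains and adaptors tie kinesins to cargo. Of 14 tested, 2 were called higher and 3 lower, shares of 14.3% and 21.4% that lie below the 21.2% and 24.3% of all genes, and the median was 0.0094 on the log2 scale. The light chain KLC2 rose by 0.65 on the log2 scale (FDR = 0.00649). MAPK8IP3, an adaptor of axonal transport, was at -1.22 (FDR = 0.000967) and the light chain KLC4 at -0.86 (FDR = 0.0191). Without control replicate 2, 1 of the 14 was called. Cytoplasmic dynein and dynactin, the motor that runs the opposite way, had a median of 0.12 over 21 genes tested, with 3 called higher and 1 lower. These shares of 14.3% and 4.76% also lie below those of all genes. DYNLT1 (1.01, FDR = 0.00127) and DYNC1I1 (0.84, FDR = 0.0477) were the larger rises, and the heavy chain DYNC1H1 was the one called lower (-0.95, FDR = 0.00292). DYNC1I1 is 1 of the 3 called higher, but it reached the RPKM threshold only under the KD label. The filter therefore favoured a rise in DYNC1I1, and that call is not independent of it. With each library left out, between 2 and 7 dynein and dynactin genes were called, 2 of them without control replicate 1 and 7 without PRMT5 KD replicate 1.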

How the data were processed

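The authors deposited 1 table of estimated counts per library, without normalization, for 2 control libraries and 2 libraries labelled PRMT5 KD. The submitters' processing notes name FastQC, Trim Galore, STAR, Salmon, DESeq2 and the build GRCh38, while the methods describe STAR and FeatureCounts on protein-coding genes. Rows of the same name were summed. The 28 entries with names turned into dates were left out. Names were matched to GENCODE 44 on GRCh38 (18938 protein-coding). Counts were rounded. A protein-coding gene was kept if its RPKM reached 0.5 in each library of one group or the other, which left 11893.

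The comparison used edgeR 4.0.16 in R 4.3.3 with TMM factors, robust quasi-likelihood dispersion and Benjamini-Hochberg adjustment (FDR). It had no replicate term, since nothing says that replicate numbers pair the libraries. Standard errors came from dividing the log2 fold change by the root of F. CPM uses TMM-scaled library sizes of the tested genes, and CPM per kb divides it by the length of the Ensembl canonical transcript. Floors cover counting error only, while the standard errors from the quasi-likelihood fit also carry the estimated spread between libraries. DESeq2 1.42.0, other scalings and filters, a replicate term and a length and GC correction (splines with 4 degrees of freedom) were alternatives. The procedure was tested on simulated data in which a far smaller share of genes changed than was called here. That test does not cover changes this widespread.

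The members, classes and companion lists were chosen with earlier results of these data known, from general knowledge and not from a database, so no set test was run. Every kinesin is named. Companion lists are represented by up to 2 calls per direction, those that moved furthest, and by every gene of lists of 4 or fewer. Other companions named were chosen after their values were seen. A companion gene that this rule would name is not reported here. Protein sequences were not used here.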

Additional observations from a re-analysis of the deposited data

How the results depend on the processing

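All 11 mitotic kinesins were called higher with DESeq2 and with each scaling, filter, dispersion, replicate term and correction tried, and 10 at a log2 fold change threshold of 1. With each library left out in turn, 10 or 11 were called, and their median log2 fold change ran from 1.27 to 1.77. The length and GC correction gave 2 cargo-transport calls with a median of -0.29, and 6 calls among the other kinesins. Total counts without TMM, which moved the median of all genes to 0.17, gave a cargo-transport median of -0.26, 5 other kinesins called, 7 dynein and dynactin genes called, and a split of 3504 genes higher and 2199 lower in place of 2521 and 2895. With all gene names tested, the cargo-transport median was -0.34 and 7 dynein and dynactin genes were called. That threshold left 1 cargo-transport kinesin, 1 other kinesin, 1 adaptor, 1 dynein gene and 2561 of 5416 genes, by its construction. The cause of the other differences was not tested.

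With each library left out, calls ran from 2 to 6 for cargo-transport kinesins, 1 to 5 for other kinesins, 8 to 13 for mitotic partners, 1 to 5 for adaptors, 2 to 7 for dynein and dynactin, and 3100 (without control replicate 2) to 5708 for all genes. The cargo-transport median ran from -0.52 to -0.31 and the PRMT5 log2 fold change from 0.57 to 0.78.

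The signs of 3 kinesins that were not called were not fixed. KIF1B was above 0 with total counts (0.10), all gene names (0.012) and the length and GC correction (0.38). KIF3B was above 0 with total counts (0.16), filterByExpr (0.051), no filter (0.040), all gene names (0.076), the correction (0.037), without control replicate 2 (0.0081) and without PRMT5 KD replicate 2 (0.051), with -0.036 as the lowest value when a library was left out. KIF5B was above 0 with total counts (0.16), filterByExpr (0.046), no filter (0.036), all gene names (0.071), without control replicate 2 (0.034) and without PRMT5 KD replicate 2 (0.16), with -0.17 as the lowest. Over all kinesins and settings, 319 of the comparisons kept their direction and side of the threshold, 15 gained a call, 12 lost it and 18 changed sign.

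Across genes, deviations from the group means correlated at -0.101 between same-numbered libraries, and 2 numbers per group cannot establish a pairing. With the replicate block, 11 mitotic, 4 cargo-transport and 3 other kinesins and 5183 genes in all were called. The block with the length and GC correction gave 11, 2 and 6 kinesins, a cargo-transport median of -0.29, 0.38 for KIF1B and 0.036 for KIF3B. The crossed pairing, added after the data were seen, gave 11, 4 and 3 kinesins and 5484 genes.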
